A study of Homo sapiens with 18 samples.

Results

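The genes described here are 47 genes of DNA replication and S phase, chosen by name and followed in U251 cells, an established human glioblastoma line. For each gene, 1 probe set was kept among those that the platform annotation maps to that gene alone, the one with the highest mean over 18 Affymetrix HG-U133 Plus 2.0 arrays. All 47 genes had such a probe set, and all 47 lay above the level minimum that left 12376 of 19775 genes in the analysis. They fall into 18 genes of origin licensing and firing, 19 genes of the replication fork, 5 genes of nucleotide supply and 5 genes of chromatin assembly and S phase control. The cells were kept in RPMI medium with serum and exposed to enzastaurin or to its solvent DMSO; exposure lasted 4, 10 or 18 h, and each of the 6 groups has 3 arrays. Enzastaurin blocks kinases, above all the beta form of protein kinase C, and the series title names inhibition of the kinase GSK3 in glioma cell death as its subject. The dose is not given in the labels, no untreated group was analysed here, and U251 is a single line. Whether replicates came from separate cultures is not stated, and the p-values therefore reflect the scatter among these arrays alone, which may be technical in origin.

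Replication is prepared in G1, when the origin recognition complex (ORC), CDC6 and CDT1 load the MCM2 to MCM7 helicase onto DNA, a step called licensing. At the start of S phase the kinase CDC7, MCM10, CDC45 and the GINS complex turn the loaded helicase into a moving fork. At the fork, primase and DNA polymerase alpha lay down primers, replication factor C (RFC) loads the sliding clamp PCNA, polymerases delta and epsilon extend the strands, replication protein A (RPA) covers single-stranded DNA, and FEN1 and LIG1 finish the lagging strand. Ribonucleotide reductase, thymidine kinase, thymidylate synthase and dUTPase supply and clean the pool of DNA precursors. Many of these genes are transcribed under E2F factors as cells enter S phase, so their mRNA is widely used as a mark of cycling cells.

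The DNA before the start of 6 of these genes is shown because CDT1, CDC6, CDC7 and FEN1 were higher and TK1 and PRIM1 lower after 18 h of enzastaurin. The sequences are the 250 bases before each annotated start in RefSeq (GRCh38.p14), with capitals for any of the E2F words TTTCCCGC, TTTGGCGC, TTTCGCGC and TTTGCCGC and the word CCAAT, each searched on both strands.
CDT1, chr16:88803539-88803788, plus strand: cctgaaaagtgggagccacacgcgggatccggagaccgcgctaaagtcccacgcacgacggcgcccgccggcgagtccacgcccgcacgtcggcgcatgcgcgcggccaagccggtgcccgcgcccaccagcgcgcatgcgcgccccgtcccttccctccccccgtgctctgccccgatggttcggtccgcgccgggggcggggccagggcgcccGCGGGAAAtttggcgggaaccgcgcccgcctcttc
CDC6, chr17:40287629-40287878, plus strand: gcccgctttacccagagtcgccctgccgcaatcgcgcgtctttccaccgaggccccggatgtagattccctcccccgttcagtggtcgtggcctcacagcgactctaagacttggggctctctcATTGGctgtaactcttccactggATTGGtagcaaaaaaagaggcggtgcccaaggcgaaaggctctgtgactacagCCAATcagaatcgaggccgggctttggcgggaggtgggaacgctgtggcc
CDC7, chr1:91500862-91501111, plus strand: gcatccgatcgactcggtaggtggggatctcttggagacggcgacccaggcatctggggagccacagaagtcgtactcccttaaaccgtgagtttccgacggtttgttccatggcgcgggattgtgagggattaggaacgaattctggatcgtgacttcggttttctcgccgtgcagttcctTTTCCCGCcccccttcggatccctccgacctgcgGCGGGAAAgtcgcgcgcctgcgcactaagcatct
FEN1, chr11:61792661-61792910, plus strand: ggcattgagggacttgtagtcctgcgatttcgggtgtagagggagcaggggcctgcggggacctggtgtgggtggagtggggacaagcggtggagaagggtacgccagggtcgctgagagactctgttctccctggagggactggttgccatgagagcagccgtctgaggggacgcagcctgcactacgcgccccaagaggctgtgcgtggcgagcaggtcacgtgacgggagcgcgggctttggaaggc
TK1, chr17:78187053-78187302, minus strand: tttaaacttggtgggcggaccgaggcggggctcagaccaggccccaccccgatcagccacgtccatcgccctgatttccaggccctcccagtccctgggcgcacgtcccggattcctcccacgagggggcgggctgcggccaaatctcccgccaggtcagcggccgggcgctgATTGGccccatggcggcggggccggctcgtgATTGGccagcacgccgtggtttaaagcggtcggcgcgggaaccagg
PRIM1, chr12:56752324-56752573, minus strand: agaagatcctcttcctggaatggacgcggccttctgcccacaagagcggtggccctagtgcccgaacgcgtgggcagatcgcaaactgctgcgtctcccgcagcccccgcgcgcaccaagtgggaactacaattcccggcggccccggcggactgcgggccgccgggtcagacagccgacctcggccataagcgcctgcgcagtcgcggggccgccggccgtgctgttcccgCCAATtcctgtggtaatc
CDT1 and CDC7 held an E2F word, CDC6, TK1 and PRIM1 held CCAAT without an E2F word, and the FEN1 window held neither. CDC7 and TK1 have 2 annotated starts each; the window shown is the one that holds the words, and the other window of each held neither kind. Of the 42 members with an entry, 17 held an E2F word (40.5%), against 3.4% of the 27305 genes in the promoter table. CCAAT stood in 25 of 42 members (59.5%) and in 37% of all genes. Among G2/M and mitosis genes the shares were 11.5% for the E2F words (3 of 26) and 84.6% for CCAAT (22 of 26). A gene with several annotated starts counted once if any of its windows held the word, which applied to 11 members. These are matches of letters and say nothing of binding. Forms of E2F site other than the listed words were not searched, so a window without a marked word is not shown to lack such a site. The CDC6 and CDT1 windows, for instance, hold tttggcgg, which was not a searched word. POLD3, MCM4, MCM5, RPA2 and RPA3 had no entry.

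The deposited values are scaled intensities with the same trimmed mean on every array (498.2 to 498.5). Array medians ran from 99.2 to 125.9, and correlations within a group were between 0.977 and 0.986. The arrays farthest from their groups were replicate 3 of enzastaurin at 10 h and replicate 3 of enzastaurin at 18 h, with root mean square deviations of 0.242 and 0.237 on the log2 scale, against 0.188 for the closest array. The number of arrays limits the precision: the standard error of a member's log2 change between groups lay between 0.06 and 0.15. Of 10 glioma and astroglial markers, 6 lay above the level minimum, among them VIM, NES, CD44 and SOX2. GFAP, the intermediate filament of astrocytes, stayed between 5 and 101.2 on all arrays, under that minimum, as did S100B, AQP4 and OLIG2 on their means. Of 16 markers of other cell types, 6 lay above the minimum, and 1 of them, the neuronal gene SYT1, was higher after 18 h (log2 change 0.86, SE 0.12, adjusted p = 2.8e-05). SYT1 is named because its value stood out. The others above the minimum, CD3E, ITGAM, PECAM1, SNAP25 and MOG, were not called at 18 h. SNAP25, also neuronal, averaged 298 with enzastaurin and 319 with DMSO at 18 h, and the neuronal gene RBFOX3 lay under the minimum. Among the glioma markers SOX2 was higher (0.45, adjusted p = 0.000292) and NES lower (-0.67, adjusted p = 3.01e-06) at 18 h, and the part of these markers in the results was not tested. PTPRC, CDH5, EPCAM and ALB, which mark blood, endothelial, epithelial and liver cells, lay under the minimum.

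Enzastaurin changed a minority of the replication genes, in both directions and by small amounts, and the number of changed genes was larger at the later times. Changes are enzastaurin minus DMSO on the scale of log2 of the intensity plus 16, tested with limma, and a gene is called where the Benjamini-Hochberg adjusted p over all 12376 genes is under 0.05. At 4 h, 1 of 47 members was called higher and 0 lower, against 0.558% and 1.25% of all genes. At an unadjusted p under 0.05 that comparison held 3 members higher and 1 lower. After 10 h, 3 members were called higher and 2 lower, against 3.77% and 4.69% of all genes. By 18 h, 7 were called higher (14.9% of members, against 8.1% of all genes) and 5 lower (10.6%, against 7.9%). In all, 14 members were called at some time, 4 of them at more than 1 time, and 33 at none. With array medians subtracted, 4 of the 12 calls at 18 h held (MCM10, FEN1, RFC5 and TK1), and 1 of the 5 at 10 h (CDT1). Without enzastaurin 18 h replicate 3, among the arrays farthest from their groups, 7 members were called higher and 1 lower at 18 h. The lower calls of ORC2, MCM2, RPA3 and PRIM1 were all lost without that array.

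The members as a group had medians close to those of all genes. The median log2 change of the 47 members was 0.04 at 4 h, -0.01 at 10 h and 0.04 at 18 h, against 0.00, -0.02 and 0.00 for all genes tested. No member changed by as much as 1 on the log2 scale: the 95% interval of every member lay inside -1 to 1 at each time, and inside -0.5 to 0.5 for 46, 42 and 35 of 47 members at 4, 10 and 18 h. Members whose 3 enzastaurin arrays lay above all 3 DMSO arrays numbered 8 at 4 h, 5 at 10 h and 12 at 18 h, where the same held for 9.17%, 11.8% and 15.4% of all genes. Members with all 3 enzastaurin arrays below all 3 DMSO arrays numbered 0, 10 and 6, where the same held for 9.13%, 15% and 14.4% of all genes. These are bulk samples, so fewer cells in S phase and less mRNA per cell cannot be told apart.

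**Figure D1:**
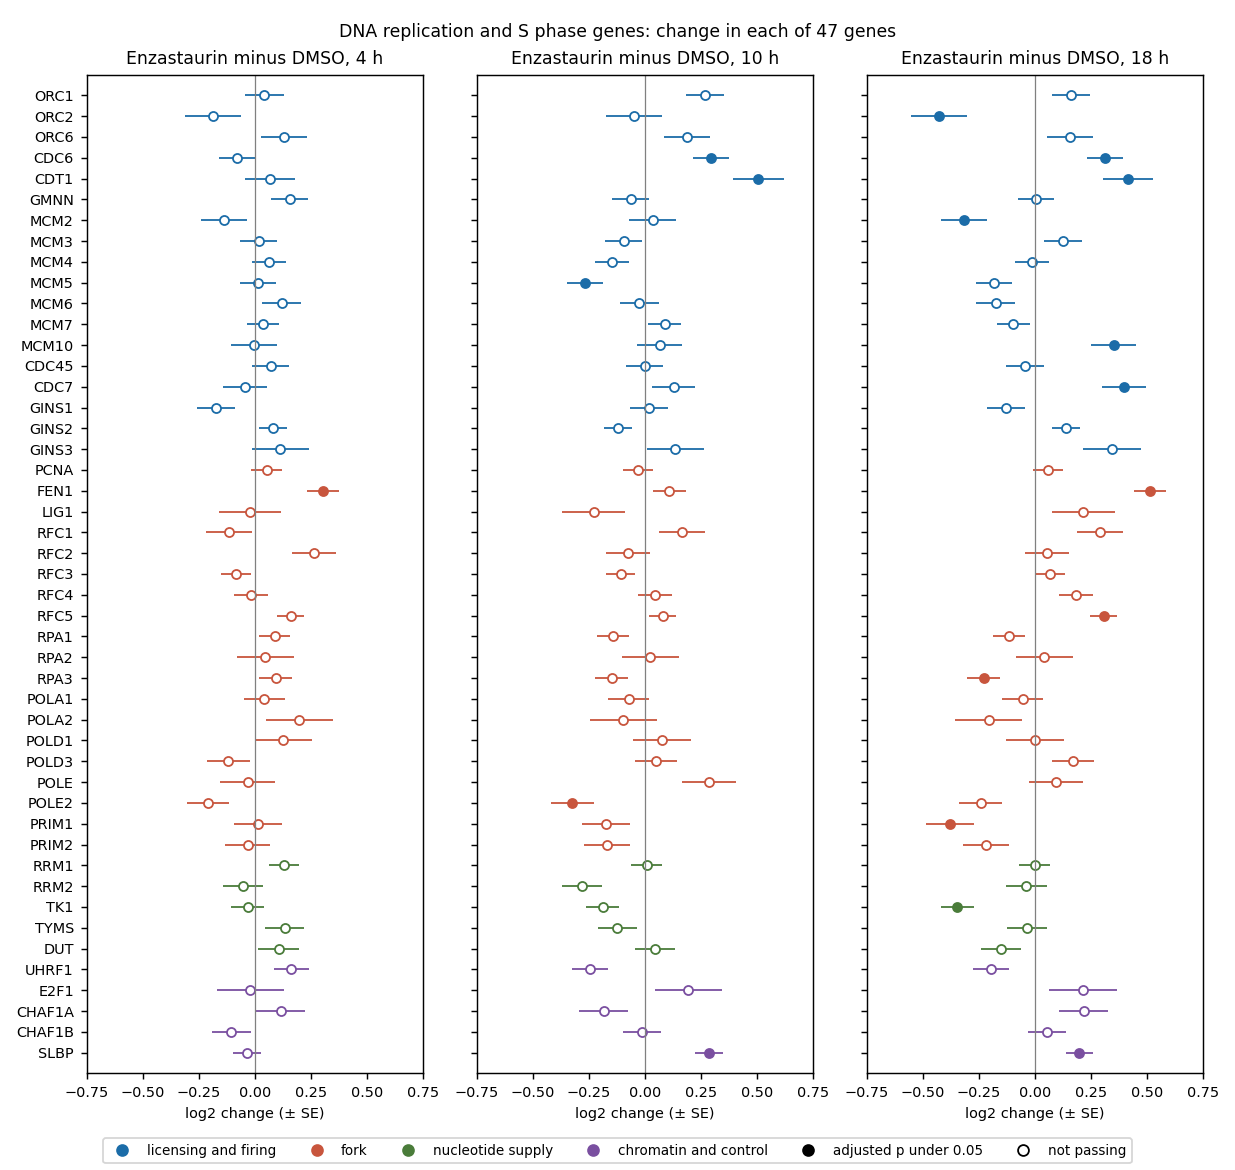
Log2 change (enzastaurin minus DMSO, ± SE) of each of the 47 genes at 4, 10 and 18 h, 3 arrays per group, coloured by role, with filled points for adjusted p under 0.05. Filled points number 1, 5 and 12 from left to right and lie on both sides of 0 at 10 and 18 h, with FEN1 at 0.51 the highest and ORC2 at -0.43 the lowest point at 18 h.

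Among the licensing and firing genes, the loading factors CDT1 and CDC6 and the firing factors CDC7 and MCM10 were higher after 18 h of enzastaurin, while the ORC subunit ORC2 and the helicase subunit MCM2 were lower. Of the 18 genes, 0 were called at 4 h (and 0 at an unadjusted p under 0.05 with limma). At 10 h 2 were higher and 1 lower, against 3.77% and 4.69% of all genes. At 18 h 4 were higher and 2 lower, against 8.1% and 7.9%. Their median change was 0.04, 0.03 and 0.06 at 4, 10 and 18 h.

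CDT1 brings the helicase to the origin recognition complex. At 10 h its intensity was 3164, 2938 and 2584 with enzastaurin, against 2194, 2288 and 1659 with DMSO. At 18 h the enzastaurin arrays read 2333, 2214 and 2634, against 1693, 1987 and 1697 on the DMSO arrays. The groups did not overlap at either time, though they did at 4 h. The log2 change was 0.07 at 4 h, 0.51 at 10 h (SE 0.11, adjusted p = 0.00667) and 0.41 at 18 h (SE 0.11, adjusted p = 0.0144). A second CDT1 probe set changed by only 0.10 at 10 h and 0.15 at 18 h, and with the mean over both probe sets CDT1 was not called at either time. The 10 h call was lost without DMSO replicate 3 (adjusted p = 0.0522), and the 18 h call with 3 of 6 arrays left out (adjusted p up to 0.0773).

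CDC6, the ATPase that works with CDT1, was likewise higher at both later times. Its intensity at 10 h was 3590, 3434 and 3140 with enzastaurin and 2826, 2676 and 2762 with DMSO. At 18 h it was 2896, 3034 and 3003 with enzastaurin and 2253, 2383 and 2558 with DMSO. All enzastaurin arrays lay above all DMSO arrays at both times, and the groups overlapped at 4 h. The log2 changes were -0.08 at 4 h, 0.30 at 10 h (SE 0.08, adjusted p = 0.0233) and 0.31 at 18 h (SE 0.08, adjusted p = 0.00902). The other CDC6 probe set changed by 0.39 and 0.28 at 10 and 18 h. The 10 h call was lost with 4 of 6 arrays left out (adjusted p up to 0.111), and the 18 h call without DMSO replicate 1 (adjusted p = 0.0534). GMNN, the inhibitor of CDT1, changed by 0.00 at 18 h (SE 0.08, 95% interval -0.16 to 0.17).

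CDC7, the kinase that fires licensed origins, read 1096, 1129 and 1008 after 18 h of enzastaurin, against 829, 810 and 805 after DMSO. The groups stood apart at 18 h and overlapped at 4 and 10 h. Its change at 18 h was 0.40 (SE 0.10, adjusted p = 0.00737), and the call held with each array left out in turn (adjusted p up to 0.0326). MCM10, which helps to activate the helicase, read 1658, 1447 and 1719 with enzastaurin and 1446, 1123 and 1214 with DMSO at 18 h. The lowest enzastaurin array was barely above the highest DMSO array. The change was 0.35 (SE 0.10, adjusted p = 0.0201), both other MCM10 probe sets were also higher (0.43 and 0.33), and the call was lost with 4 of the 6 arrays left out (adjusted p up to 0.113).

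ORC2, a core subunit of the origin recognition complex, was lower at 18 h, at 611, 658 and 553 with enzastaurin against 742, 802 and 927 with DMSO. Every enzastaurin array lay below every DMSO array. The log2 change was -0.43 (SE 0.12, adjusted p = 0.0215), but its second probe set changed by 0.08, and the mean over both was not called. The call was also lost with 3 of 6 arrays left out (adjusted p up to 0.111). ORC1 and ORC6, the other ORC subunits among the members, changed by 0.16 each at 18 h and did not pass the test. Nor did ORC3, ORC4 and ORC5, subunits outside the members, at -0.31, -0.09 and 0.14 (adjusted p = 0.0542, 0.371 and 0.311).

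Of the 6 helicase subunits MCM2 to MCM7, 5 had a change below 0 at 18 h, and 1 was called. Among all 12376 genes, 6160 were below 0 and 7.9% were called lower at that time. MCM2 read 3574, 4431 and 3837 with enzastaurin and 4801, 4395 and 5591 with DMSO at 18 h. The ranges overlapped by a narrow margin, with 1 enzastaurin array above the lowest DMSO array. Its change was -0.32 (SE 0.10, adjusted p = 0.0406), and it was lost with 4 of 6 arrays left out (adjusted p up to 0.202). At 10 h the called subunit was MCM5, at 2428, 2442 and 2214 with enzastaurin against 2986, 2564 and 2999 with DMSO, with no overlap. The MCM5 change was -0.27 at 10 h (SE 0.08, adjusted p = 0.0438) and -0.18 at 18 h (adjusted p = 0.138), and the 10 h call was lost with 5 of 6 arrays left out (adjusted p up to 0.166). When every probe set was tested in limma, the second MCM5 probe set changed by -0.06 at 10 h (adjusted p = 0.916). The kept MCM5 probe set did not pass in that test either (adjusted p = 0.118). With the mean over both MCM5 was not called (-0.16, adjusted p = 0.116). MCM3, MCM4, MCM6 and MCM7 were between -0.18 and 0.12 at 18 h. The remaining firing factors CDC45, GINS1, GINS2 and GINS3 changed by -0.05, -0.13, 0.14 and 0.34 and did not pass. GINS3 had a second, dimmer probe set with a change of 0.46 that passed when every probe set was tested on its own (adjusted p = 0.00619).

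Among the fork genes, FEN1, the nuclease that trims Okazaki fragments, and RFC5, a small subunit of the clamp loader, were higher after 18 h of enzastaurin, while the primase subunit PRIM1 and the small RPA subunit RPA3 were lower. Of 19 fork genes, 1 was higher and 0 lower at 4 h (3 and 1 at an unadjusted p under 0.05), 0 were higher and 1 lower at 10 h (1 and 1 unadjusted), and 2 were higher and 2 lower at 18 h, by limma. The shares of all genes called higher and lower were 0.558% and 1.25% at 4 h. They were 3.77% and 4.69% at 10 h, and 8.1% and 7.9% at 18 h. The medians of the fork genes were 0.04, -0.07 and 0.05.

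FEN1 had the largest change of the 47 members at 18 h. After 4 h its intensity was 4086, 3772 and 4041 with enzastaurin against 3205, 3144 and 3263 with DMSO. After 10 h it was 4685, 4199 and 4203 with enzastaurin against 3921, 4534 and 3703 with DMSO, and after 18 h it was 4398, 4606 and 4790 with enzastaurin against 3288, 3290 and 3076 with DMSO. The groups stood apart at 4 and 18 h and overlapped at 10 h, when the DMSO arrays were higher than at the other times. The change was 0.31 at 4 h (SE 0.07, adjusted p = 0.0296), 0.11 at 10 h (SE 0.07, adjusted p = 0.437) and 0.51 at 18 h (SE 0.07, adjusted p = 3.09e-05), a fold of 1.43 at 18 h. The second FEN1 probe set gave 0.11, 0.17 and 0.49. The 4 h call was lost with 5 of 6 arrays left out (adjusted p up to 0.12), and the 18 h call held with every array left out (adjusted p up to 0.000371).

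RFC5 read 5726, 6159 and 5696 with enzastaurin at 18 h, against 5025, 4708 and 4485 with DMSO. The groups did not overlap at 18 h. The log2 change was 0.16 at 4 h, 0.08 at 10 h and 0.31 at 18 h (SE 0.06, adjusted p = 0.00101), and the 18 h call held with every array left out. Of 2 other RFC5 probe sets, 1 rose as well (0.42) and 1 changed by 0.03. All 5 RFC subunits had a change above 0 at 18 h, as did 6216 of all 12376 genes. RFC1 was at 0.29 (adjusted p = 0.0605), RFC2 at 0.05, RFC3 at 0.07 and RFC4 at 0.18, none of which passed.

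PRIM1, the catalytic subunit of primase, read 1388, 1314 and 971 with enzastaurin and 1630, 1592 and 1518 with DMSO at 18 h. All enzastaurin arrays were lower, and replicate 3 was the lowest. The change was -0.38 (SE 0.11, adjusted p = 0.0174); without enzastaurin replicate 3 it was -0.22, and the call was lost with 3 of 6 arrays left out (adjusted p up to 0.121). RPA3 read 7916, 7931 and 7497 with enzastaurin against 8969, 9606 and 8822 with DMSO, again without overlap, a change of -0.23 (SE 0.07, adjusted p = 0.0366) that was lost with 5 of 6 arrays left out (adjusted p up to 0.142). Its partners RPA1 and RPA2 changed by -0.11 and 0.04.

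At 10 h the called fork gene was POLE2, a subunit of polymerase epsilon, at 1009, 978 and 1034 with enzastaurin against 1200, 1290 and 1305 with DMSO. No arrays overlapped, and the change was -0.32 (SE 0.10, adjusted p = 0.0385), but the call was lost with each of the 6 arrays left out in turn (adjusted p up to 0.123). Of the 8 polymerase and primase subunits, 6 were below 0 at 18 h and 1, PRIM1, was called. Among all 12376 genes, 6160 were below 0 and 7.9% were called lower at that time.

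PCNA, the sliding clamp and a common marker of S phase, passed at no time. It read 8263, 8605 and 8263 with enzastaurin and 7998, 8714 and 7493 with DMSO at 18 h, and the groups overlapped at every time. Its change was 0.05 at 4 h, -0.03 at 10 h and 0.06 at 18 h (SE 0.07 each, adjusted p = 0.815, 0.859 and 0.665), with a 95% interval of -0.08 to 0.20 at 18 h. LIG1, which seals the nicks that FEN1 leaves, was at 0.22 at 18 h with an interval of -0.07 to 0.51, and POLD1, POLD3 and POLE lay between 0.00 and 0.17.

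Of the 5 nucleotide supply genes, 0 were called at 4 h and at 10 h (by limma, with 0 and 2 lower at an unadjusted p under 0.05). At 18 h 1 was called lower and 0 higher, against 7.9% and 8.1% of all genes. TK1, the cytosolic thymidine kinase that recycles thymidine in S phase, was that gene. It read 3250, 3590 and 3429 with enzastaurin at 18 h, against 4601, 4170 and 4300 with DMSO. The groups were well apart at 18 h and overlapped at 4 and 10 h. The change was -0.03 at 4 h, -0.19 at 10 h (adjusted p = 0.132) and -0.35 at 18 h (SE 0.07, adjusted p = 0.00205), a fold of 0.786. The second TK1 probe set was also lower at 18 h (-0.52), and the call held with every array left out (adjusted p up to 0.0163).

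RRM2, the small subunit of ribonucleotide reductase whose level limits the enzyme in S phase, had its lowest value against DMSO at 10 h. It read 15434, 16642 and 18315 with enzastaurin at 10 h, against 18806, 21466 and 20838 with DMSO. The groups did not overlap at that time and overlapped at 4 and 18 h. The change at 10 h was -0.28 (SE 0.09) and missed the threshold (adjusted p = 0.0596), and at 18 h it was -0.04 (SE 0.09, 95% interval -0.23 to 0.15). RRM1, the large subunit, TYMS, the thymidylate synthase, and DUT, the dUTPase, changed by 0.00, -0.04 and -0.15 at 18 h, none past the threshold.

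SLBP, which binds the stem-loop of histone mRNAs in S phase, was the called gene of the chromatin and control group, at both later times. Its intensity at 10 h was 7648, 7809 and 7178 with enzastaurin, against 6464, 6124 and 5964 with DMSO. At 18 h it was 6479, 6557 and 5824 with enzastaurin, against 5530, 5445 and 5449 with DMSO. The groups stood apart at both times. The change was 0.29 at 10 h (SE 0.06, adjusted p = 0.00454), held with every array left out, and 0.20 at 18 h (SE 0.06, adjusted p = 0.0312), lost with 5 of 6 arrays left out (adjusted p up to 0.115).

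E2F1, a transcription factor that drives entry into S phase, was among the dimmer members. It read 442, 409.5 and 466.6 with enzastaurin at 18 h, against 423.4, 342 and 367.5 with DMSO, and the groups overlapped at all 3 times. Its change was -0.02, 0.19 and 0.21 at 4, 10 and 18 h (SE 0.15 each), with a 95% interval at 18 h of -0.10 to 0.53. The second E2F1 probe set changed by 0.62, -0.33 and 0.14 at 4, 10 and 18 h and did not pass (adjusted p = 0.271, 0.611 and 0.849). UHRF1, which reads newly made DNA for maintenance methylation, read 5764, 5485 and 5117 with enzastaurin at 18 h, against 6006, 6888 and 5877 with DMSO. Those groups did not overlap at 10 or 18 h, yet the changes of -0.25 and -0.20 did not pass (adjusted p = 0.0607 and 0.108). CHAF1A and CHAF1B, subunits of chromatin assembly factor 1, were at 0.22 and 0.05 at 18 h.

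**Figure D2:**
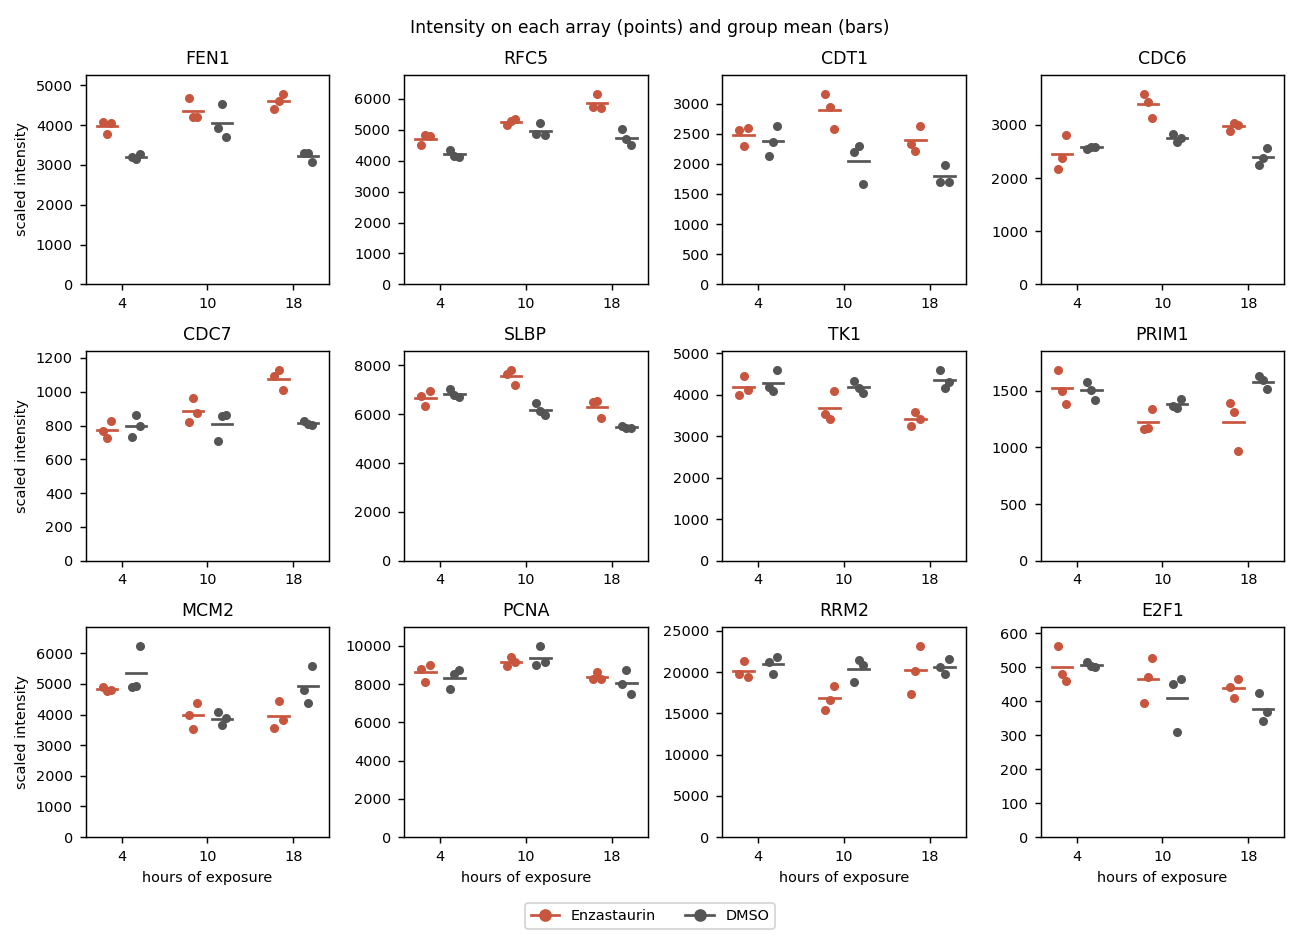
Scaled intensity of 12 genes on each of the 18 arrays (points) with group means (bars), enzastaurin to the left of DMSO at 4, 10 and 18 h, each axis starting at 0. FEN1, RFC5, CDT1, CDC6, CDC7 and SLBP lie higher and TK1 and PRIM1 lower with enzastaurin at 18 h without overlap, while the PCNA, RRM2 and E2F1 points overlap there.

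Whether the effect of enzastaurin itself differed between times was tested as a difference of differences. Between 18 h and 4 h, 1 member was called for a higher effect and 0 for a lower one, against 4.07% and 3.71% of all genes, and 7 and 5 had an unadjusted p under 0.05 in limma. That gene was CDC6, with an effect larger by 0.39 (SE 0.11, adjusted p = 0.0367) at 18 h. Between 18 h and 10 h, 1 member was higher and 0 lower, against 1.33% and 0.905% of all genes, with 5 and 2 at an unadjusted p under 0.05. That gene was FEN1, larger by 0.40 (SE 0.10, adjusted p = 0.0387). Each call was lost with 9 of the 12 arrays left out in turn (adjusted p up to 0.112 for CDC6 and 0.113 for FEN1). With array medians subtracted the call between 18 h and 4 h was 1 lower member and 0 higher. The kept probe sets of the other 46 members did not pass in either comparison, and their intervals were wide, within -0.5 to 0.5 for 29 members between 18 h and 4 h and for 35 between 18 h and 10 h. When every probe set was tested, the second probe sets of GINS3 (0.61, adjusted p = 0.0228) and TK1 (-0.61, adjusted p = 0.0301) passed between 18 h and 4 h. The second CDC6 probe set gave 0.23 and did not pass in that limma test (adjusted p = 0.44), nor did the kept one (adjusted p = 0.0988). Between 18 h and 10 h the kept and second FEN1 probe sets gave 0.40 and 0.32. Neither passed in that test (adjusted p = 0.121 and 0.425). With the mean over probe sets 3 members were called between 18 h and 4 h. CDC6 was not among those 3 (0.31, adjusted p = 0.0688).

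Between 4 h and 10 h of enzastaurin 6 members rose and 9 fell (12.8% and 19.1% of members, against 10.2% and 6.92% of all genes). These 15 calls became 4 with array medians subtracted and 6 without enzastaurin 4 h replicate 1. In DMSO cells 3 were higher and 3 lower over the same interval (against 11.5% and 6.61%). CDC45, the helicase cofactor, averaged 1741 ± 125.1, 1287 ± 135.1 and 1076 ± 60.2 at 4, 10 and 18 h of enzastaurin, and 1656 ± 85.7, 1285 ± 56.1 and 1110 ± 16.7 at 4, 10 and 18 h of DMSO (SD, n = 3 each). It fell by 10 h in cells of either exposure (log2 change -0.43, adjusted p = 0.000983 with enzastaurin, and -0.36, adjusted p = 0.00468 with DMSO), and so did MCM7 (-0.32, adjusted p = 0.00454, and -0.37, adjusted p = 0.00152).

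MCM5 averaged 3261 ± 117, 2361 ± 127.8 and 2389 ± 191 at 4, 10 and 18 h of enzastaurin, and 3224 ± 98.4, 2850 ± 247.4 and 2719 ± 256.1 at 4, 10 and 18 h of DMSO. It fell by 0.46 on the log2 scale between 4 and 10 h of enzastaurin (adjusted p = 0.000392), and its change over that interval in DMSO cells, -0.18, did not pass. The second MCM5 probe set fell in cells of either exposure when every probe set was tested (-0.40, adjusted p = 0.00983 with enzastaurin, and -0.35, adjusted p = 0.0237 with DMSO). CDC6 rose over the same interval in enzastaurin cells (0.47, SE 0.08, adjusted p = 0.000312), with 0.10 in DMSO cells, which did not pass. When every probe set was tested, the second CDC6 probe set changed by 0.26 with enzastaurin and -0.07 with DMSO, and neither passed (adjusted p = 0.0644 and 0.736). Whether changes over this interval differed between the exposures was not tested. The polymerase subunits POLA1, POLA2 and POLD1 fell in enzastaurin cells by 0.31, 0.56 and 0.40 on the log2 scale (adjusted p = 0.0235, 0.013 and 0.039). TYMS read 32813, 30817 and 32878 at 4 h of enzastaurin and 27874, 25391 and 26161 at 10 h, with no overlap between the times. TYMS, RRM2 and UHRF1 fell as well (-0.28, -0.27 and -0.32; adjusted p = 0.0315, 0.0464 and 0.00836), and RFC1, RFC4, ORC1, GINS1 and SLBP rose by 0.18 to 0.31. In DMSO cells MCM2 fell by 0.46 (adjusted p = 0.00403), and FEN1, RFC5 and RFC4 rose by 0.33, 0.24 and 0.23. The RFC5 change was 0.06 with the mean over probe sets (adjusted p = 0.474), and the RFC4 call was lost with 5 of 6 arrays left out (adjusted p up to 0.199). Of the enzastaurin calls over this interval, those of POLA1, POLD1 and RRM2 were each lost with 5 of 6 arrays left out (adjusted p up to 0.198), and those of ORC1, RFC1, TYMS and SLBP with 4 of 6 (adjusted p up to 0.206). GINS1 was lost with 3 of 6 (adjusted p up to 0.18) and POLA2 with 2 of 6 (adjusted p up to 0.0702). With the mean over probe sets 11 members were called in enzastaurin cells, and RFC1, POLA2, POLD1, RRM2 and TYMS did not pass (adjusted p = 0.687, 0.286, 0.0531, 0.0925 and 0.496). When every probe set was tested, the second TYMS probe set changed by -0.29 in cells of either exposure (adjusted p = 0.0533 with enzastaurin and 0.0467 with DMSO). The second RRM2 probe set changed by -0.10 with enzastaurin (adjusted p = 0.608). In that limma test the kept TYMS and RRM2 probe sets did not pass with enzastaurin either (adjusted p = 0.0961 and 0.13).

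Between 10 h and 18 h fewer members were called. In enzastaurin cells 0 were higher and 3 lower (against 5.42% and 5.64% of all genes), with 4 and 8 at an unadjusted p under 0.05 in limma: ORC6 (-0.39, adjusted p = 0.0174), ORC1 (-0.30, adjusted p = 0.0309) and SLBP (-0.26, adjusted p = 0.00671). In DMSO cells 0 were higher and 4 lower (against 2.02% and 3.3%), with 3 and 11 unadjusted: ORC6 (-0.36), FEN1 (-0.33), GINS2 (-0.30) and GMNN (-0.29), with adjusted p = 0.0464, 0.0105, 0.00643 and 0.0406. Leaving out arrays in turn ended the enzastaurin calls of ORC6 with 4 of 6 arrays (adjusted p up to 0.081) and of ORC1 with 3 of 6 (up to 0.194). The DMSO calls of ORC6 and GMNN were lost with 4 of 6 arrays each (adjusted p up to 0.205), and that of FEN1 with 2 of 6 (up to 0.0745). With the mean over probe sets only 1 member was called in DMSO cells, and FEN1 and GINS2 changed by -0.21 and -0.11 (adjusted p = 0.0697 and 0.756). In DMSO cells 37 of 47 members were below 0 over this interval, as were 6075 of all 12376 genes. The median of the members was -0.10, against 0.01 for all genes. Culture time and exposure time run together here and cannot be told apart.

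Enzastaurin and DMSO cells share no arrays, so their changes with time can be set side by side. Across the 47 members the log2 changes between 4 and 10 h correlated with a Pearson r of 0.54 between enzastaurin and DMSO cells, and 30 members (63.8%) had the same sign, where r was 0.47 and 67.7% had the same sign over all genes. Between 10 and 18 h r was 0.27 with 27 members (57.4%) of the same sign, where r was 0.28 and the share 62.5% over all genes. Genes are not independent replicates, and the genes of a comparison share the arrays of 4 groups.

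**Figure D3:**
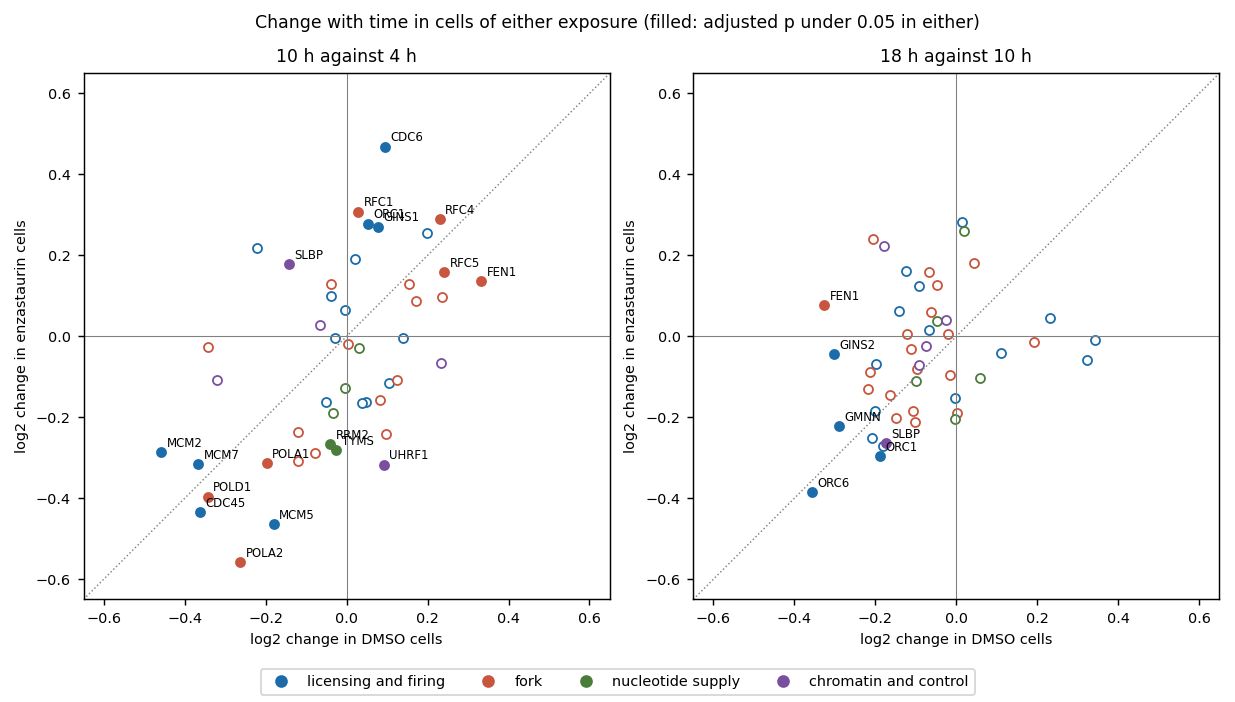
Log2 change with time of the 47 genes in enzastaurin cells (vertical) and DMSO cells (horizontal) between 4 and 10 h (left) and 10 and 18 h (right), 3 arrays per group, with filled, named points for genes called in either and the dotted line marking equal change. CDC45 and MCM7 lie near the line at the lower left, and CDC6 lies high on the left panel at 0.47 against 0.10. ORC6 and FEN1 lie farthest to the left in the right panel, at -0.36 and -0.33 in DMSO cells.

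How far the kept probe sets stand for their genes can be judged in the 25 members that have more than 1. Of the 12 members called at 18 h, 7 had 9 other probe sets, of which 8 had the same sign and 5 also passed in that direction when every probe set was tested. Other probe sets of called members that also passed numbered 0 of 1 at 4 h, 1 of 3 at 10 h, 2 of 10 between 4 and 10 h of enzastaurin, 0 of 4 between 4 and 10 h of DMSO and 0 of 3 between 10 and 18 h of DMSO. Their signs were the same for 1, 3, 9, 3 and 2 of them. That limma test adjusted over all 54613 probe sets, and some kept probe sets of called members did not pass in it either. These were FEN1 at 4 h (adjusted p = 0.0857) and CDC6, MCM5 and POLE2 at 10 h (0.0662, 0.118 and 0.0949). At 18 h they were MCM2, MCM10, RPA3 and SLBP (0.106, 0.0514, 0.101 and 0.0886). The numbers that passed are therefore not on the same footing as the calls over 12376 genes. CDT1, ORC2 and RFC5 each had another probe set above the level minimum that changed by 0.15 or less at 18 h. The intensities of different probe sets are not compared here.

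Of 45 further replication and repair genes 41 were tested, and at 18 h 5 were higher and 4 lower, against 8.1% and 7.9% of all genes, with a median of -0.01. EXO1, an exonuclease of mismatch repair, and DSCC1, a subunit of an alternative clamp loader, were higher (0.39 each, adjusted p = 0.00724 and 0.0114). ASF1A, a histone chaperone, was lower (-0.25, SE 0.06, adjusted p = 0.00661).

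Regulators of S phase entry act before the replication genes. They included MYC, the gene with the lowest log2 change of these lists at 18 h. Of 28 regulators 27 were tested, and 5 were higher and 5 lower at 18 h, against 8.1% and 7.9% of all genes. Their median was 0.17. MYC averaged 1184 ± 201.1 with enzastaurin and 2433 ± 82.6 with DMSO at 18 h (SD, n = 3 each), and its log2 change was -1.04 (SE 0.11, adjusted p = 6.57e-07). It was already lower at 4 h (-0.70, adjusted p = 0.000814) and 10 h (-0.75, adjusted p = 0.000103). CCNE2, a cyclin of the G1 to S transition, was lower at 4 h (-0.34, adjusted p = 0.0159) and higher at 18 h (0.52, SE 0.07, adjusted p = 2.73e-05). CDK4, a G1 kinase, and E2F7, a repressor among the E2F factors, were higher at 18 h (0.38 and 0.44, adjusted p = 8.4e-05 and 0.000213).

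Of 32 G2/M and mitosis genes, 14 were lower and 1 higher at 18 h, and 17 did not pass, against 7.9% and 8.1% of all genes lower and higher. Their median was -0.23, where the 47 replication genes had 7 higher and 5 lower and a median of 0.04. KIF20A, a mitotic kinesin, averaged 3559 ± 284.3 with enzastaurin and 5530 ± 213.8 with DMSO (log2 change -0.64, SE 0.08, adjusted p = 7.52e-06). CDC25C, NUSAP1 and NEK2, which act in entry into or passage through mitosis, changed by -0.92, -0.45 and -0.48 (adjusted p = 7.26e-06, 2.36e-05 and 0.00046). The difference between the lists was not tested.

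**Figure D4:**
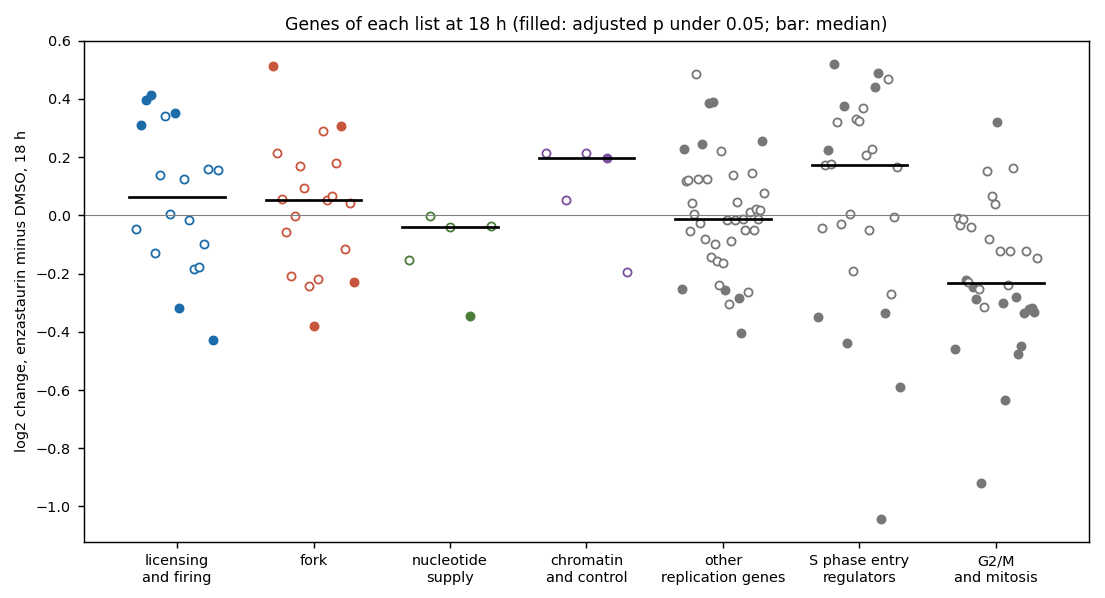
Log2 change (enzastaurin minus DMSO) at 18 h of the genes in the 4 role groups of the replication genes and in 3 further lists, 1 point per gene, filled where adjusted p was under 0.05, with the list median as a bar. The replication groups spread on both sides of 0 within -0.43 to 0.51, and MYC stands at -1.04 among the regulators. Of 32 G2/M genes 27 lie below 0, as did 6160 of all 12376 genes.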

How the data were processed

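RNA of U251 cells was measured on 18 arrays. The table the authors deposited holds intensity values on a linear scale, made with GCOS 1.2 per the submitters' processing notes, and scaled to 1 level per array. From these, log2 of the intensity plus 16 was computed with no further normalization. Of 54613 probe sets 41091 had 1 symbol, and the one with the highest mean per gene was kept if its mean log2 lay at or above the median of all probe sets (an intensity of 102). Symbols were updated through RefSeq (GRCh38.p14). The fit in limma 3.58.1 (R 4.3.3) used 1 mean for each of the 6 groups and a trend on level, with 9 comparisons, and p-values were adjusted by Benjamini-Hochberg over 12376 genes. The procedure was tested on simulated data.

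The 47 members, the other lists and the rule for naming genes were chosen with earlier results of these data known. The rule names, per role, up to 5 called members by adjusted p against DMSO and up to 2 in the other comparisons, with PCNA, E2F1, RRM2 and MCM2 in any case, up to 4 genes of each further list at 18 h, and MYC. One gene of the further lists that the rule names is not reported here. Other members are accounted for in less detail, and GINS3's second probe set was singled out after its values were seen. Replicate numbers were checked as possible pairs: deviations from group means of same-numbered arrays correlated at -0.13 to 0.19, so they were not treated as pairs. The alternatives are listed in the closing section. The plots come from matplotlib 3.10.9 under Python 3.11.15.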

Additional observations from a re-analysis of the deposited data

Results flagged for a closer look

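The effect of enzastaurin on CDC6 differed between times by the test of the difference itself: it was larger by 0.39 on the log2 scale at 18 h than at 4 h (SE 0.11, adjusted p = 0.0367 by limma). The effect on FEN1 was larger by 0.40 at 18 h than at 10 h (SE 0.10, adjusted p = 0.0387). With the mean over probe sets the CDC6 difference did not pass (0.31, adjusted p = 0.0688), and the FEN1 difference did (0.36, adjusted p = 0.0486). When every probe set was tested in limma, neither the kept CDC6 nor the kept FEN1 probe set passed (adjusted p = 0.0988 and 0.121). Groups of 3 arrays are too small for a check of single outlying arrays.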

How the results depend on the processing

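Settings were changed 1 at a time over 9 comparisons, and no called member changed sign in any of them. The 18 h calls of FEN1, RFC5 and TK1, the DMSO changes of MCM2 and FEN1 between 4 and 10 h, and the enzastaurin changes of CDC6, MCM5 and CDC45 over that interval passed in every setting and with every array left out. An offset of 1 or 64 left every count as it was. The 1 call at 4 h became 0 with quantile normalization, with array medians subtracted, with the mean over probe sets and with no trend, and 0 to 1 with an array left out. The 5 calls at 10 h (3 higher, 2 lower) became 3 with no level filter, 8 with only the brightest probe sets by level (the top 25%), 1 with medians subtracted (1 higher, 0 lower), 2 with no trend and 9 with array weights, and under quantile normalization they were 3 higher and 4 lower. Leaving out an array gave 1 to 6 calls at 10 h, with 1 without DMSO replicate 3, 2 without enzastaurin replicate 1 or 2, and 3 without DMSO replicate 2. The 12 calls at 18 h became 4 with medians subtracted (3 higher, 1 lower), 7 without the 2 arrays farthest from their groups (an alternative chosen after seeing the data), 7 in a fit of only the groups compared, and 7 to 11 with an array left out, with 7 without DMSO replicate 1 or 3 or enzastaurin replicate 1. The 1 difference of effect between 18 and 4 h became 0 with no level filter or no trend, 5 with only the brightest probe sets, 2 with quantile normalization, 3 with the mean over probe sets, and 0 to 2 with an array left out. With medians subtracted or only the groups compared the count stayed at 1, but that member was lower (0 higher). The CDC6 call held in 6 of the 12 settings, and it was also lost without the 2 farthest arrays, where 1 other member was called. The 1 between 18 and 10 h became 0 with no level filter, medians subtracted, no trend, array weights, the replicate block, only the groups compared or without the 2 farthest arrays, 2 with quantile normalization, and 0 to 1 with an array left out. The 4 DMSO calls between 10 and 18 h became 2 with no level filter or no trend, 7 with only the brightest probe sets, 7 with quantile normalization (2 higher, 5 lower), 1 with the mean over probe sets, and 1 to 6 with an array left out. The 6 DMSO calls between 4 and 10 h stayed between 5 and 9, with 4 higher and 1 lower when medians were subtracted. The 15 enzastaurin calls between 4 and 10 h became 4 with medians subtracted (1 higher, 3 lower), 9 with no trend, and 6 to 17 with an array left out, lowest without enzastaurin 4 h replicate 1. The 3 between 10 and 18 h became 6 with quantile normalization (3 higher, 3 lower), 5 with medians subtracted, 1 with no trend or only the groups compared, 5 with the replicate block, and 1 to 4 with an array left out. The replicate block gave 1, 6 and 12 calls at 4, 10 and 18 h. Subtracting array medians shifted the median change of all genes by 0.12 at 4 h, by 0.11 in DMSO cells between 4 and 10 h, by -0.12 in the difference of effects between 18 and 4 h, and between 10 and 18 h by -0.13 in enzastaurin and -0.11 in DMSO cells. The causes of these differences were not tested.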
